A study of Mus musculus with 13 samples.

Results

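Mouse hearts that had undergone ischaemia and reperfusion were compared with sham-operated hearts, neither having received an injection, at the level of the whole polyadenylated transcriptome. The libraries were chosen by their titles alone: the 3 libraries titled IR and the 3 titled IR-Sham, 6 of the 13 in the series. All mice were wild-type C57Bl6 males aged 17 weeks, and RNA came from the whole heart. The Sham mice had sham surgery at 12 weeks of age, and the IR mice had ischaemia and reperfusion (IR) at the same age, 5 weeks before the age given for the samples. Ischaemia and reperfusion means that blood flow to the muscle is stopped for a time and then restored. The other libraries came from IR hearts given a control virus at 12 weeks (IR virus, 3 libraries) or a CaMKIIδ editing system (IR edit, 4 libraries), and only the IR virus libraries are used here, as a second set of injured and unedited hearts. The length of the ischaemia, the size of the injured area and the chambers sampled are not given in the labels, and the whole heart mixes scar with muscle far from it. In such bulk RNA, fewer cells of a type and less RNA per cell cannot be told apart.

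Heart muscle that dies after ischaemia is replaced by scar. Fibroblasts become activated and deposit collagens, matricellular proteins such as periostin and thrombospondins, and the enzymes that crosslink collagen, while TGF-beta ligands and secreted Wnt modulators act among them. The surviving cardiomyocytes carry a higher load and turn on stress genes known from the fetal heart or from stretched muscle, such as natriuretic peptides, the slow myosin Myh7, skeletal alpha-actin and the ankyrin repeat protein Ankrd1.

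The 6 libraries held 22784417 to 27265276 counts, of which 34.4% to 38.5% came from mitochondrially encoded genes. The defining heart markers Myh6, Actc1, Tnnt2, Tnni3, Myl2 and Ryr2 were among the abundant genes in all 6, the lowest value being Ryr2 at 1913 CPM (counts relative to the library total, after TMM scaling) in IR 1. The IR libraries were not equally distinct from each other. IR 1, IR 2 and IR virus 3 differed from one another by a coefficient of variation over genes of 0.0417 to 0.0433, whereas the other 75 of the 78 pairs in the series lay between 0.0759 and 0.256, with a median of 0.134. Over genes with 20 to 1000 reads, the chi-square per gene of these 3 pairs was 1.37 to 1.43, where 1 is sampling noise alone, against 2.12 or more for every other pair. These 3 libraries therefore differed by more than sampling noise and by far less than any other pair, and whether they share a heart or an RNA sample cannot be told from the counts. Tests are therefore given for the 6 libraries as labelled and, for the genes that passed, again with IR 1 and IR 2 averaged and counted as 1 sample. Sham 3 stood apart in atrial genes: the atrial myosin light chain Myl7 was at 23.1, 21.9 and 1.54 CPM in Sham 1, 2 and 3 and 24.7, 19.8 and 30.1 CPM in IR 1, 2 and 3. Sham 1 held reads of liver genes, with Alb at 9.08 CPM against 0 in Sham 2 and Sham 3.

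**Figure D1:**
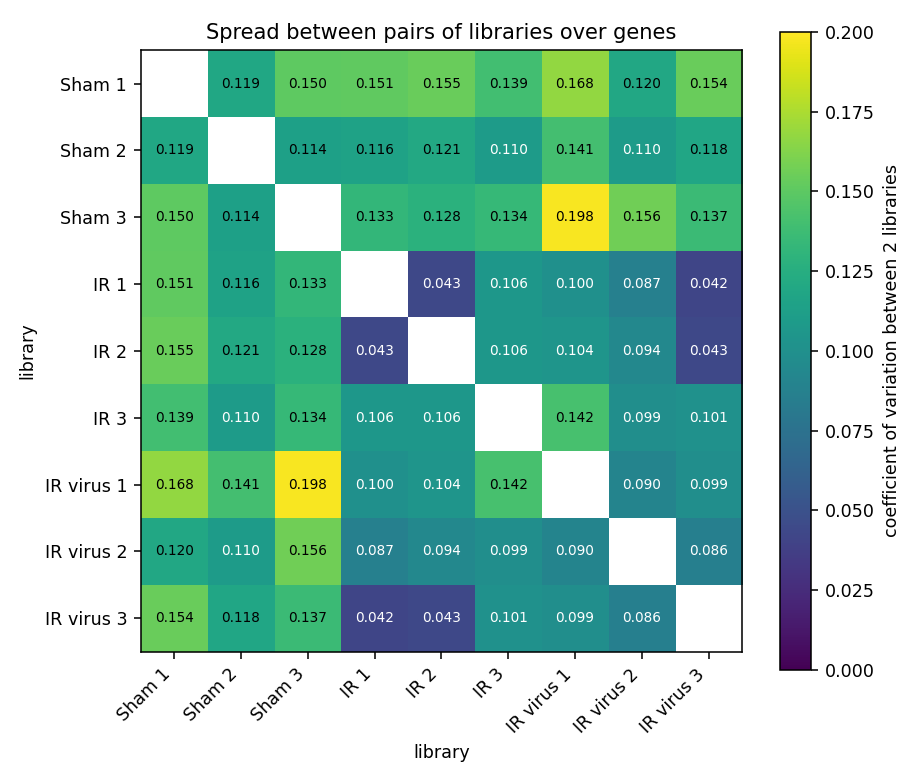
Coefficient of variation over genes between each pair of libraries (rows and columns) of the Sham, IR and IR virus groups; darker cells mark more similar libraries. The 3 pairs among IR 1, IR 2 and IR virus 3 lie between 0.042 and 0.043, and the pairs of IR 3 with IR 1 and IR 2 are at 0.106.

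Of 14963 genes tested, 112 (0.749%) passed an adjusted p of 0.05 in edgeR's quasi-likelihood test, 86 (0.575%) higher and 26 (0.174%) lower in IR. In 52 of them the difference was at least 2-fold, 47 higher and 5 lower. None of the 112 had overlapping groups, every IR library lying on the same side of every Sham library. The 112 were picked by a test on these same values, so this adds no support to them. Genes that did not pass, such as Sdhc, Etfb and Nppb, were also without overlap, and the share over all genes tested was not counted. Of the genes that passed, 37 were on lists of matrix and scar genes and 9 on the cardiomyocyte stress and sarcomere lists, all of them higher. These lists were chosen with earlier results of these data known. With IR 1 and IR 2 averaged, 14 of 15255 genes (0.0918%) passed, 13 higher (0.0852%) and 1 lower (0.00656%), and 13 of the 14 were among the 112. All 112 kept their sign in that fit. Leaving out 1 of the 6 libraries as labelled gave 115 genes without Sham 1, 43 without Sham 2, 29 without Sham 3, 15 without IR 1, 16 without IR 2 and 193 without IR 3. Of the 112, 12 passed in all of these fits, 24 passed without Sham 3 and 14 without IR 1. With IR 1 and IR 2 averaged and Sham 3 left out, edgeR called 0 genes, and 1195 had an unadjusted p under 0.05. The labels do not say that each library came from a separate mouse, so p-values measure the spread between these libraries.

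Thbs4, thrombospondin 4, a matricellular protein of injured heart and tendon, lies at chr13:92751590-92794818, minus strand (mm10, GENCODE M21, a protein-coding gene). It was measured at 4.15, 4.39 and 3.68 CPM in Sham 1, 2 and 3 and 25.2, 26.3 and 14.4 CPM in IR 1, 2 and 3. Every IR library was thus more than 3 times the highest Sham library, and IR 3 was the lowest of the 3. Its log2 fold change was 2.42 ± 0.22 (SE; adjusted p = 0.00129), and 2.3 ± 0.23 with IR 1 and IR 2 averaged (adjusted p = 0.00679). Cilp, a cartilage and scar matrix protein (chr9:65265180-65280605, plus strand), stood at 6.08, 7.6 and 4.75 CPM in Sham 1, 2 and 3 and 53.4, 55.4 and 28.7 CPM in IR 1, 2 and 3. The 3 Sham libraries were close together, and again IR 3 was lower than IR 1 and IR 2. The log2 fold change of Cilp was 2.9 ± 0.25 (adjusted p = 0.00125), or 2.75 ± 0.26 averaged (adjusted p = 0.00581).

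Comp, the cartilage oligomeric matrix protein and a relative of the thrombospondins (chr8:70373558-70382066, plus strand), was at 3.56, 5.49 and 3.49 CPM in Sham 1, 2 and 3 and 32.5, 30.2 and 12.9 CPM in IR 1, 2 and 3. Its log2 fold change was 2.59 ± 0.32 (adjusted p = 0.00677) and 2.4 ± 0.33 averaged (adjusted p = 0.0448). In the 6 fits that each leave out 1 library, Comp passed in 5, with a largest adjusted p of 0.0589. Ltbp2, a latent TGF-beta binding protein of microfibrils (chr12:84783212-84876532, minus strand), had 3.71, 3.21 and 1.49 CPM in Sham 1, 2 and 3 and 19.4, 17.7 and 10.1 CPM in IR 1, 2 and 3, a log2 fold change of 2.46 ± 0.30 (adjusted p = 0.00675) and an averaged value of 2.33 ± 0.33 (adjusted p = 0.0448). Timp1, an inhibitor of matrix metalloproteinases (chrX:20870166-20874735, plus strand), was a low-level gene at 0.445, 0.549 and 0.698 CPM in Sham 1, 2 and 3 and 3.77, 2.72 and 2.04 CPM in IR 1, 2 and 3. Its groups were far apart for their spread, with a log2 fold change of 2.34 ± 0.31 (adjusted p = 0.00873, averaged 2.24 ± 0.32, adjusted p = 0.0448).

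Ctgf, the connective tissue growth factor and a textbook target of TGF-beta, was at 37.7, 37.8 and 48.2 CPM in Sham 1, 2 and 3 and 88.7, 86.2 and 72.6 CPM in IR 1, 2 and 3. IR 3 was again the lowest IR library, by a smaller margin, with a log2 fold change of 1.0 ± 0.12 (adjusted p = 0.00568, averaged 0.96 ± 0.14, adjusted p = 0.0448). Dio2, the deiodinase that makes the active thyroid hormone within tissues (chr12:90724552-90738438, minus strand), was at 1.33, 1.94 and 2.19 CPM in Sham 1, 2 and 3 and 11.1, 10.2 and 5.85 CPM in IR 1, 2 and 3. Its log2 fold change was 2.33 ± 0.26 (adjusted p = 0.00568, averaged 2.19 ± 0.28, adjusted p = 0.0357).

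Edn3, which encodes the vasoactive peptide endothelin 3 (chr2:174760619-174784042, plus strand), was the member of the 38 adrenergic, endothelin and angiotensin genes tested that passed. It was measured at 0.964, 1.44 and 1.72 CPM in Sham 1, 2 and 3 and 4.91, 5.15 and 6.57 CPM in IR 1, 2 and 3, and here IR 3 was the highest library. The log2 fold change was 2.03 ± 0.22 (adjusted p = 0.00449, averaged 2.1 ± 0.24, adjusted p = 0.0224). The median of that list was -0.022, beside -0.0049 over all genes tested, of which 48.8% had a positive value.

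Ankrd1, the ankyrin repeat protein that sits at the Z-disc and in the nucleus of cardiomyocytes (chr19:36111961-36120099, minus strand), had the smallest p of all genes in the comparison. Its level was 767, 1019 and 1021 CPM in Sham 1, 2 and 3 and 2714, 2682 and 2452 CPM in IR 1, 2 and 3. All 3 IR libraries were more than 2 times the highest Sham library and lay within a narrow range of each other. The log2 fold change was 1.48 ± 0.12 (adjusted p = 0.00094, averaged 1.46 ± 0.14, adjusted p = 0.00581). Nppa, which encodes atrial natriuretic peptide (chr4:148000722-148002079, plus strand), was at 23.2, 26 and 13 CPM in Sham 1, 2 and 3 and 164, 131 and 72.8 CPM in IR 1, 2 and 3, with a log2 fold change of 2.56 ± 0.29 (adjusted p = 0.00568, averaged 2.4 ± 0.31, adjusted p = 0.0355). In Nppa the lowest IR library was IR 3 and the lowest Sham library Sham 3, the library with few atrial reads, and Nppa passed also without Sham 3 (edgeR adjusted p = 0.034). With IR 1 and IR 2 averaged and Sham 3 left out as well, it did not pass (adjusted p = 0.216).

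The other 3 genes that passed with IR 1 and IR 2 averaged have no gene name and were chosen after their values were seen. Gm36827, a long intergenic RNA at chr10:56970329-56982232, minus strand, was the 1 gene that fell in that fit, at 40.4, 35.5 and 43.7 CPM in Sham 1, 2 and 3 and 17.9, 18 and 21.7 CPM in IR 1, 2 and 3 (log2 fold change -1.05 ± 0.11, adjusted p = 0.00449, averaged -1.01 ± 0.13, adjusted p = 0.0385). AC161763.1 rose, at 20.5, 23.7 and 28.7 CPM in Sham 1, 2 and 3 and 45.1, 48.3 and 48.7 CPM in IR 1, 2 and 3 (log2 fold change 0.96 ± 0.12, adjusted p = 0.00675, averaged 0.97 ± 0.14, adjusted p = 0.0454). Gm29216 passed only in the averaged fit (averaged 1.6 ± 0.14, adjusted p = 0.00581; adjusted p = 0.233 with 6 libraries). It was at 19.5, 132 and 72.4 CPM in IR 1, 2 and 3, and IR 1 was below all 3 Sham libraries at 26.9, 19.6 and 26.6 CPM.

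**Figure D2:**
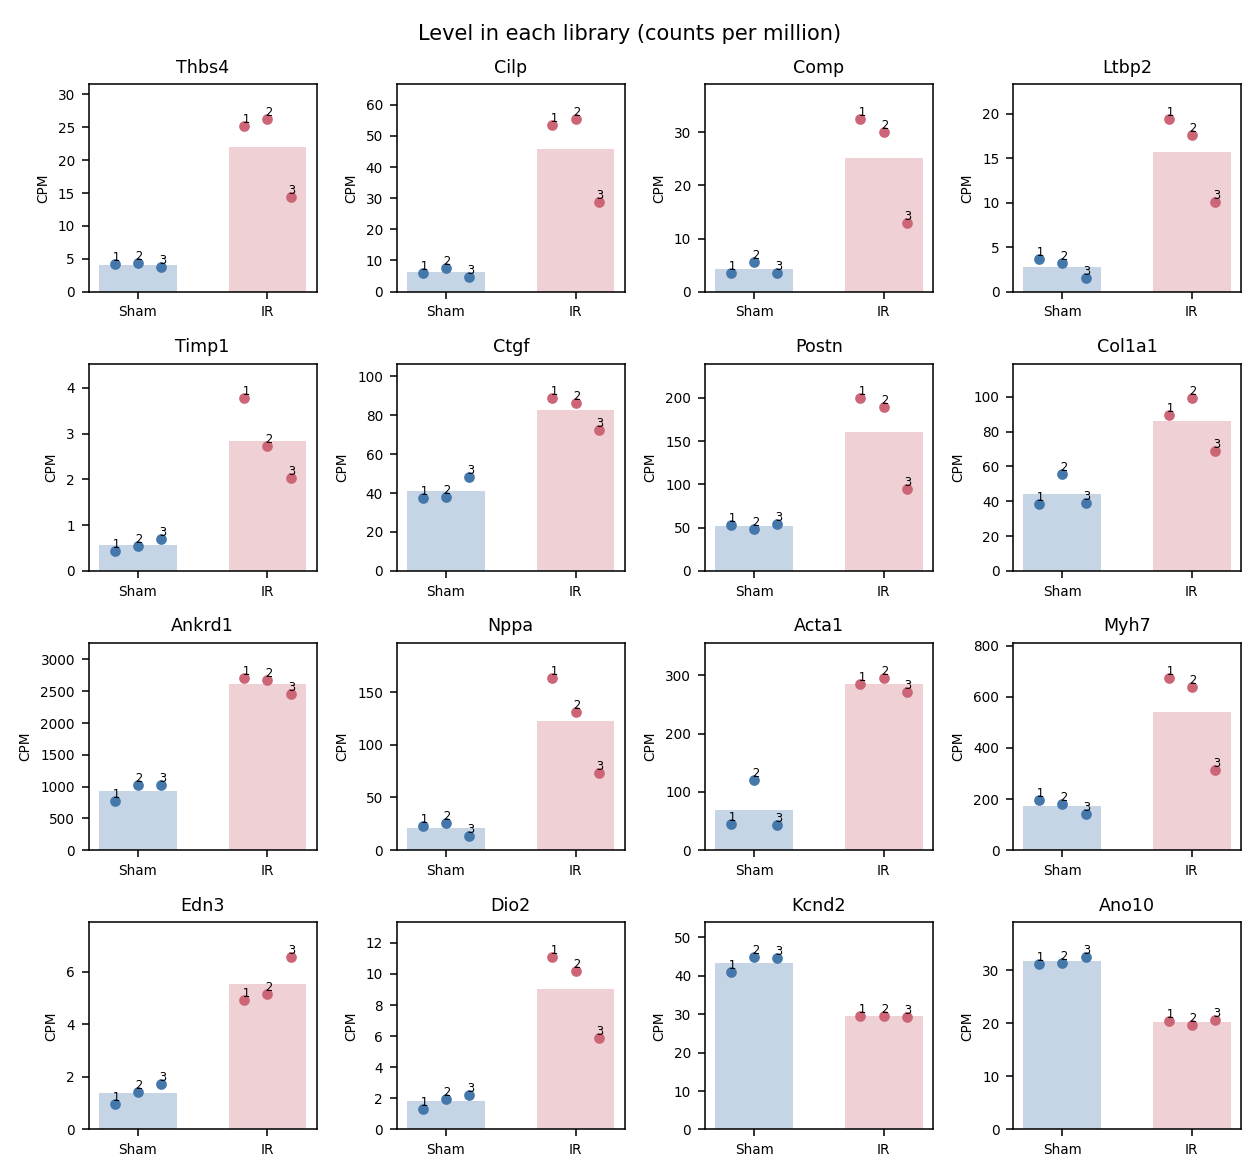
Level (CPM, linear axis from 0) of 16 genes in each library; points are libraries, numbered by replicate, and bars are group means of 3. In Thbs4, Cilp, Comp, Postn, Nppa and Myh7 the third IR library lies below the other IR libraries, while in Ankrd1, Acta1 and Kcnd2 the 3 IR libraries lie close together.

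Of 28 cardiomyocyte stress genes tested, 8 rose and none fell, and 27 had a positive log2 fold change, with a list median of 0.62. Over all genes tested, 0.575% passed as higher and 48.8% had a positive value. This list, too, was chosen with earlier results of these data known. Ankrd1 and Nppa rose also with IR 1 and IR 2 averaged. Acta1, skeletal alpha-actin of the fetal heart (chr8:123891769-123894751, minus strand), was at 44.6, 120.2 and 43.1 CPM in Sham 1, 2 and 3 and 285, 296 and 272 CPM in IR 1, 2 and 3. Sham 2 was well above the other Sham libraries, and the IR libraries lay close together above it. The log2 fold change of Acta1 was 2.04 ± 0.32 (adjusted p = 0.020, averaged 2.02 ± 0.36, adjusted p = 0.105). Acta1 did not pass with edgeR's robust dispersion setting (adjusted p = 0.304). With IR 1 and IR 2 averaged, it did not pass in DESeq2 either (adjusted p = 0.142). Myh7, the slow beta-myosin heavy chain (chr14:54970684-54994626, minus strand), was at 198, 179 and 142 CPM in Sham 1, 2 and 3 and 675, 639 and 312 CPM in IR 1, 2 and 3, with a log2 fold change of 1.65 ± 0.24 (adjusted p = 0.0174, averaged 1.49 ± 0.25, adjusted p = 0.0915). Both genes have close relatives that are abundant in this tissue, Actc1 and Myh6, whose reads could be shared with them, so their counts are uncertain. Rcan1, the regulator and target of calcineurin, rose by a log2 fold change of 0.63 ± 0.12 (adjusted p = 0.0465, averaged adjusted p = 0.213). The actin-binding proteins Xirp2 (0.51 ± 0.091, adjusted p = 0.0317, averaged adjusted p = 0.134) and Synpo2l (0.61 ± 0.11, adjusted p = 0.0317, averaged adjusted p = 0.152) rose by less than 2-fold. The ligand Tgfb2 was the other member that rose (0.69 ± 0.12, adjusted p = 0.0279, averaged adjusted p = 0.18). Nppb, brain natriuretic peptide, was looked up after the values were seen: it was at 22.2, 114 and 79.5 CPM in Sham 1, 2 and 3 and 169.6, 165 and 173 CPM in IR 1, 2 and 3, and although the groups did not overlap, the Sham libraries were unequal and it did not pass (1.24 ± 0.40, adjusted p = 0.286).

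The promoters of 3 stress genes that rose (Ankrd1, Acta1 and Myh7) are shown because they hold the muscle MCAT motif, the letters CATTCC on either strand, which TEAD factors bind. The 250 bases before the RefSeq start are printed 5' to 3' on the gene's strand (GRCm38.p6, the mm10 assembly): Ankrd1 at chr19:36119845-36120094, minus strand, Acta1 at chr8:123894776-123895025, minus strand, Myh7 at chr14:54994627-54994876, minus strand, and, for a scar gene that also holds it, Thbs4 at chr13:92794819-92795068, minus strand. The Ankrd1 stretch lies inside the gene as placed by GENCODE M21 (chr19:36111961-36120099), whose start differs from that of RefSeq. Capitals mark CATTCC or its reverse complement and, in Acta1, the CArG box, the site type of serum response factor.
Ankrd1: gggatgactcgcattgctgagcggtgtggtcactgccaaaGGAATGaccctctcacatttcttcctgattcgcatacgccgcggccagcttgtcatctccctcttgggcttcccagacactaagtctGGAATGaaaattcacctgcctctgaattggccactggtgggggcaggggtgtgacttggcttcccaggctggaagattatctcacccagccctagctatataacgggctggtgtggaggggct
Acta1: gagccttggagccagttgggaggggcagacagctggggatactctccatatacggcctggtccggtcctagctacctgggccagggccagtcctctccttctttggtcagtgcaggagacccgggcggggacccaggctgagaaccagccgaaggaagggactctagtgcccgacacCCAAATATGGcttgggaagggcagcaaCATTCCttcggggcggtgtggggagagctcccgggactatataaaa
Myh7: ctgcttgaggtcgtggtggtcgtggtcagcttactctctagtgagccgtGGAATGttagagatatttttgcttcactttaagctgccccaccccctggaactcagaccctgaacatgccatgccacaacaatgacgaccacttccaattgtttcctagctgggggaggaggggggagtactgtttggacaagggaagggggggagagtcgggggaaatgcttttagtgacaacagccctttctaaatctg
Thbs4: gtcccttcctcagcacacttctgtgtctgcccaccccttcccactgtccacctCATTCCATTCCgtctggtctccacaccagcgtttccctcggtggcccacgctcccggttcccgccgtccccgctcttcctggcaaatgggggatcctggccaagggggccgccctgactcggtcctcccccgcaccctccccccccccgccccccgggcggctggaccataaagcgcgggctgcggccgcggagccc
Ankrd1 holds 2 MCAT matches, beginning 210 and 123 bases before the start. Acta1 has 1 at 46 bases and a CArG box at 73 bases, and Myh7 has 1 at 201 bases. In Thbs4, 2 matches at 197 and 192 bases overlap by 1 base. Of 27025 promoters of this length, 12.6% hold CATTCC on either strand and 1.4% a CArG box. Of the 112 genes that passed, 79 have a promoter in the table, and of these 12 (15.2%) hold CATTCC and 1 (1.3%) a CArG box, shares near those of all promoters. Of the 30 listed stress genes with a promoter, 5 (16.7%) hold CATTCC and 4 (13.3%) a CArG box. Of the 8 stress genes that passed, 3 (37.5%), the ones shown, hold CATTCC and 1 (12.5%) a CArG box. Among 14 scar genes that passed, 2 (14.3%) hold CATTCC and none a CArG box. These sets are small, the lists were chosen with earlier results known, and the shares were not tested. Nppa, Xirp2, Synpo2l and Rcan1 have no match to either motif in this window.

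The sarcomere list had a median of 0.024 over 38 genes tested. Its 3 members that rose were Acta1, Myh7 and Neb, which encodes the thin-filament ruler nebulin (12.1, 8.7 and 9.31 CPM in Sham 1, 2 and 3 and 18.4, 18.4 and 15.8 CPM in IR 1, 2 and 3; 0.80 ± 0.14, adjusted p = 0.026, averaged adjusted p = 0.157). Among the heart markers, the fast myosin Myh6 was at 16889, 18416 and 12486 CPM in Sham 1, 2 and 3 and 14374, 13669 and 15184 CPM in IR 1, 2 and 3 (-0.14 ± 0.14, adjusted p = 0.823), and Actc1 (0.065 ± 0.12), Tnnt2 (-0.22 ± 0.10), Tnni3 (-0.26 ± 0.08), Myl2 (-0.18 ± 0.087) and Ryr2 (-0.10 ± 0.11) did not pass, with adjusted p between 0.248 and 0.926. The sign for Actc1 turns in some left-out fits.

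Of the gene lists, that of scar genes held the most genes that passed. The lists were chosen with earlier results of these data known, so these counts are not independent evidence. Over all genes tested, 0.575% passed as higher and 48.8% had a positive value. Of 45 activated fibroblast and scar genes tested, 23 rose, none fell and 43 had a positive value, with a median log2 fold change of 0.90. With IR 1 and IR 2 averaged, 6 passed, among them Cilp, Thbs4, Comp, Ltbp2 and Timp1. Postn, periostin, the matricellular mark of activated cardiac fibroblasts, was at 53, 48.9 and 53.7 CPM in Sham 1, 2 and 3 and 199, 189 and 94.6 CPM in IR 1, 2 and 3. IR 1 and IR 2 were nearly 4 times the Sham level and IR 3 less than 2 times (log2 fold change 1.64 ± 0.22, adjusted p = 0.0112, averaged 1.48 ± 0.23, adjusted p = 0.069). Meox1, a transcription factor of activated fibroblasts, rose by a log2 value of 1.0 ± 0.16 (adjusted p = 0.0217, averaged adjusted p = 0.134). The transcription factor Runx1 rose by 0.85 ± 0.16 (adjusted p = 0.0427, averaged adjusted p = 0.24). The oxidase Nox4 rose by 1.69 ± 0.26 (adjusted p = 0.0191, averaged adjusted p = 0.105). Cthrc1, a marker of scar fibroblasts, was low at 0.185, 0.211 and 0.14 CPM in Sham 1, 2 and 3 and 1.27, 0.669 and 0.721 CPM in IR 1, 2 and 3 (2.27 ± 0.44, adjusted p = 0.0455, averaged adjusted p = 0.117). The summed level of the list was 959.8 to 997 CPM in Sham and 1279 to 1889 CPM in IR, at 1883, 1889 and 1279 CPM in IR 1, 2 and 3.

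Among the 9 fibrillar collagen chains tested, 4 rose and all 9 had a positive value (median 0.74), but none passed with IR 1 and IR 2 averaged. The collagen lists were also chosen with earlier results known, and the shares over all genes tested were 0.575% higher and 48.8% positive. Col1a1, the main chain of type I collagen, was at 38.5, 55.4 and 38.9 CPM in Sham 1, 2 and 3 and 89.7, 99.1 and 68.9 CPM in IR 1, 2 and 3 (0.96 ± 0.16, adjusted p = 0.0231, averaged 0.88 ± 0.18, adjusted p = 0.134). Its partner Col1a2 rose by 0.74 ± 0.13 (adjusted p = 0.0336, averaged adjusted p = 0.211). Col5a2 rose by 0.82 ± 0.13 (adjusted p = 0.0191, averaged adjusted p = 0.116). For Col3a1 the change was 0.96 ± 0.18 (adjusted p = 0.0426, averaged adjusted p = 0.24). Col3a1 shows the inequality within IR, at 163, 214 and 215 CPM in Sham 1, 2 and 3 and 449, 444 and 262 CPM in IR 1, 2 and 3: IR 3 was only slightly above the highest Sham library. Of 25 other collagens, 5 rose and 22 were positive (median 0.37), again none in the averaged fit. The short-chain collagens Col8a1 (31.9, 28.8 and 31.2 CPM in Sham 1, 2 and 3 and 81.2, 81.5 and 48.2 CPM in IR 1, 2 and 3; 1.2 ± 0.17, adjusted p = 0.0165, averaged adjusted p = 0.0915) and Col8a2 (2.13 ± 0.37, adjusted p = 0.030, averaged adjusted p = 0.134) rose. The fibril-associated Col12a1 (1.85 ± 0.28, adjusted p = 0.0186, averaged adjusted p = 0.101) and Col14a1 (1.14 ± 0.20, adjusted p = 0.0278, averaged adjusted p = 0.155) also rose. Col6a5 had 1, 2 and 1 reads in Sham and 14, 10 and 18 in IR, so its fitted value of 3.3 ± 0.54 rests on few reads (adjusted p = 0.0191, averaged adjusted p = 0.0728).

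Of 29 collagen processing and crosslinking enzymes, 2 rose (median 0.21). Here too the lists were chosen with earlier results known, beside shares over all genes tested of 0.575% higher and 48.8% positive. Lox, lysyl oxidase, was at 5.0, 5.7 and 6.05 CPM in Sham 1, 2 and 3 and 14.2, 16.3 and 9.12 CPM in IR 1, 2 and 3 (1.25 ± 0.20, adjusted p = 0.020, averaged adjusted p = 0.109). Adamts2, the procollagen N-proteinase, was the other (0.77 ± 0.12, adjusted p = 0.0191, averaged adjusted p = 0.116). Of 21 matricellular proteins, 8 rose and 18 were positive (median 0.53). Of the 8, 3 passed also with IR 1 and IR 2 averaged (Thbs4, Comp and Ctgf). The others were Postn, Wisp2 (1.79 ± 0.28, adjusted p = 0.020, averaged adjusted p = 0.115), tenascin C, Tnc (1.28 ± 0.19, adjusted p = 0.0188, averaged adjusted p = 0.105), Spp1, and Sparc (0.48 ± 0.084, adjusted p = 0.031, averaged adjusted p = 0.217). Sparc was the 1 gene of 18 on the basement membrane list that passed (median 0.19). Of 13 small leucine-rich proteoglycans, which sit on collagen fibrils, 2 rose and 12 were positive (median 0.46). Biglycan, Bgn, was at 142, 126 and 101 CPM in Sham 1, 2 and 3 and 253, 253 and 193 CPM in IR 1, 2 and 3 (0.93 ± 0.14, adjusted p = 0.0174, averaged adjusted p = 0.105). The other was fibromodulin, Fmod (1.43 ± 0.26, adjusted p = 0.0358, averaged adjusted p = 0.202). Of 26 microfibril and elastic fibre genes, 3 rose (median 0.31), Ltbp2 being the first. Mfap4 rose by 1.81 ± 0.30 (adjusted p = 0.0217, averaged adjusted p = 0.129). Adamtsl2 rose by 1.27 ± 0.19 (adjusted p = 0.0174, averaged adjusted p = 0.105). Of 37 matrix proteases and inhibitors, only Timp1 and Adamts2 passed (median 0.25). Of 25 integrin subunits and relatives, the integrin-like protein Itgbl1 was the 1 that rose (1.19 ± 0.21, adjusted p = 0.0317, averaged adjusted p = 0.18; list median 0.25).

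Of 50 TGF-beta and BMP pathway genes, 4 rose and none fell (median 0.10). Beside the counts in these lists, chosen with earlier results known, 0.575% of all genes tested passed as higher. The TGF-beta and BMP pathway genes that rose were Ltbp2, the ligands Tgfb2 and Tgfb3 (0.84 ± 0.14, adjusted p = 0.0207, averaged adjusted p = 0.134), and the feedback inhibitor Pmepa1. Pmepa1 was at 20.6, 21.6 and 18.6 CPM in Sham 1, 2 and 3 and 32.1, 34.6 and 34.4 CPM in IR 1, 2 and 3 (0.73 ± 0.092, adjusted p = 0.00767, averaged 0.74 ± 0.11, adjusted p = 0.0608), with all 3 IR libraries alike. Of 24 Wnt ligands and secreted modulators, the 3 that rose were all extracellular Wnt antagonists of the frizzled-related family. Sfrp2 was at 1.67, 2.28 and 1.54 CPM in Sham 1, 2 and 3 and 13.1, 14.1 and 4.92 CPM in IR 1, 2 and 3 (2.55 ± 0.36, adjusted p = 0.0165, averaged 2.34 ± 0.38, adjusted p = 0.0822). Frzb rose by 1.16 ± 0.16 (adjusted p = 0.0114, averaged adjusted p = 0.0822). Sfrp1 rose by 0.90 ± 0.17 (adjusted p = 0.0455, averaged adjusted p = 0.267). The Wnt list median was 0.22. It was 0.061 without Sham 3, and with IR 1 and IR 2 averaged it was -0.021 without Sham 3 and -0.029 when IR 3 stood alone for IR. Of 45 growth factors and angiogenic genes, pleiotrophin, Ptn (1.69 ± 0.29, adjusted p = 0.0283, averaged adjusted p = 0.151), and Igfbp7 (0.57 ± 0.11, adjusted p = 0.0455, averaged adjusted p = 0.291) rose. Of 16 chondrocyte and osteoblast genes, 4 rose (median 0.53). They were Comp, Fmod, Spp1 and the transcription factor Runx2 (1.25 ± 0.24, adjusted p = 0.0424, averaged adjusted p = 0.18). The bone markers Sp7, Bglap2 and Ibsp were at 0 in all 6 libraries. Of 23 contractile genes of myofibroblasts and smooth muscle, none passed and the median was 0.04. Of 24 quiescent fibroblast genes, Gpx3, a secreted glutathione peroxidase, rose (0.51 ± 0.082, adjusted p = 0.0207, averaged adjusted p = 0.116), and the list's median was 0.10.

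**Figure D3:**
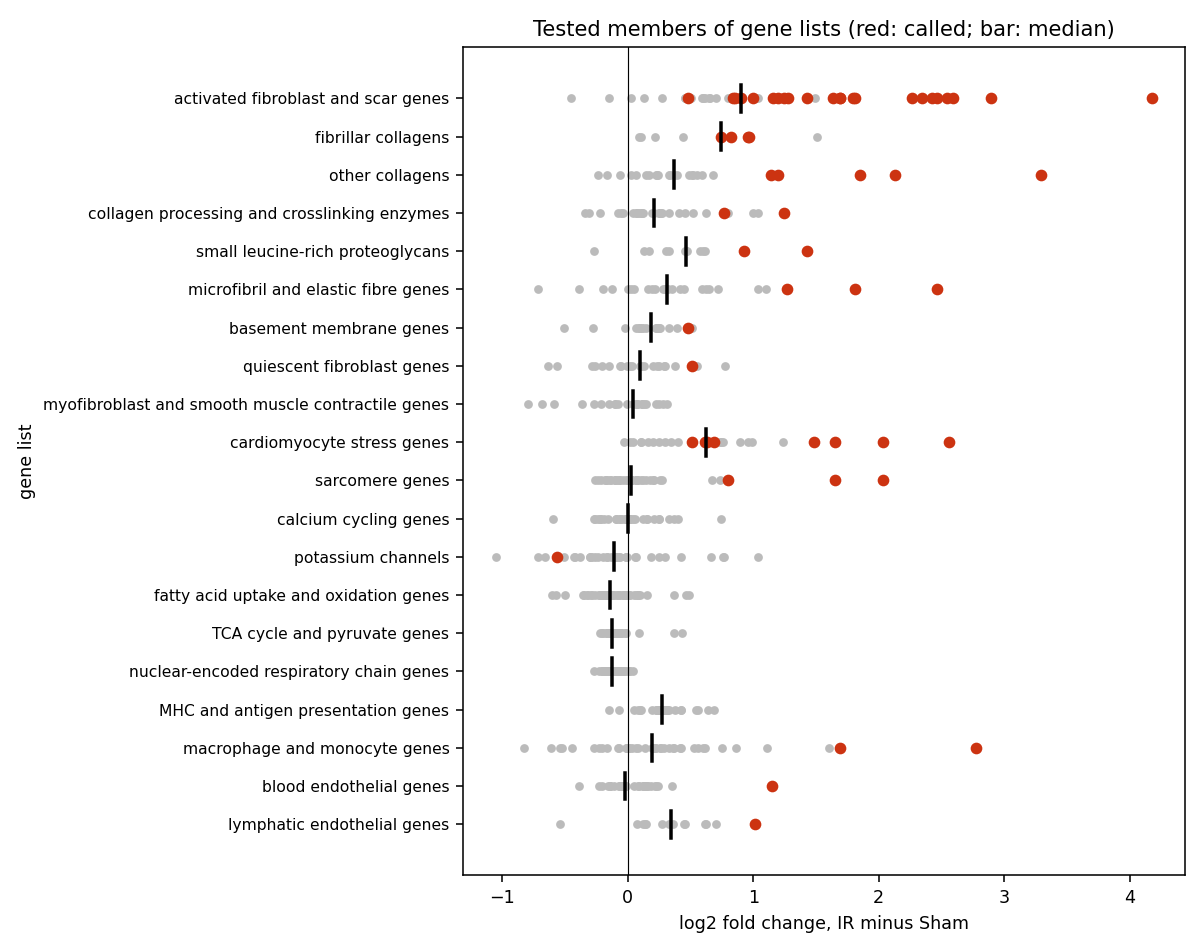
Log2 fold change, IR minus Sham, of the tested members of 20 gene lists (one dot per gene; red, adjusted p under 0.05 with 6 libraries as labelled; black bar, list median). Matrix lists and the cardiomyocyte stress list hold most of the red dots, and the respiratory chain list lies in a narrow band just below 0.

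IR 3 was set beside the mean of IR 1 and IR 2 in the genes that passed. Of the 37 from the matrix lists, 36 were lower in IR 3, against 6 of 9 from the cardiomyocyte stress and sarcomere lists. Of 65 others, Sprr1a left aside, 36 were lower. The 65 include the 26 genes that fell, in which a lower value means a larger change. The shares are therefore not alike in meaning, and the share over all genes tested was not counted. All these genes were also picked by a test in which IR 1 and IR 2, which resemble each other, counted as separate samples. The shares can therefore not be read as a trait of matrix genes. The ratio of IR 3 to that mean was 0.487 in Postn, 0.413 in Comp, 0.361 in Sfrp2, 0.559 in Thbs4 and 0.587 in Col3a1. In Nppa and Myh7 it was 0.494 and 0.475. In Ankrd1, Acta1, Xirp2 and Rcan1 it was 0.909, 0.935, 1.11 and 1.06, and in Edn3 1.31. These ratios describe 1 library against the pair that resembles each other, and carry no test.

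**Figure D4:**
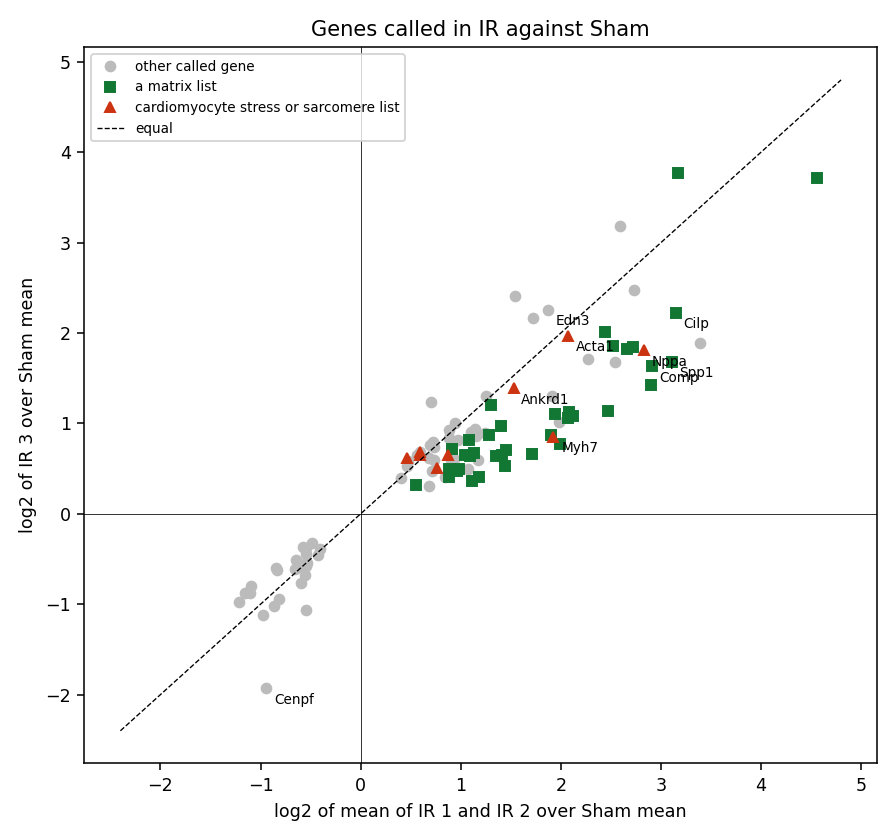
For 111 genes that passed (Sprr1a, at 0 in Sham, is left out), the log2 ratio to the Sham mean in IR 3 (vertical) against that of the mean of IR 1 and IR 2 (horizontal); squares are genes of the matrix lists, triangles genes of the cardiomyocyte stress and sarcomere lists, the dashed line equality. Both axes share the Sham mean; 36 of 37 squares lie below the line, and Ankrd1 and Acta1 lie close to it.

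Other genes with large increases lay outside these lists. Lrp8, an apolipoprotein E receptor, was at 0.556, 0.296 and 0.466 CPM in Sham 1, 2 and 3 and 2.03, 2.22 and 1.44 CPM in IR 1, 2 and 3 (2.09 ± 0.30, adjusted p = 0.0174, averaged adjusted p = 0.0915). The water channel Aqp8 was at 0.371, 0.971 and 0.838 CPM in Sham 1, 2 and 3 and 2.29, 2.51 and 3.27 CPM in IR 1, 2 and 3 (1.91 ± 0.30, adjusted p = 0.020, averaged adjusted p = 0.0915), and Atp6v0a4, a proton pump subunit, at 0.222, 0.0844 and 0.14 CPM in Sham 1, 2 and 3 and 1.44, 1.67 and 0.551 CPM in IR 1, 2 and 3 (2.96 ± 0.54, adjusted p = 0.0358, averaged adjusted p = 0.18). All 3 were low in Sham. Sprr1a, a small proline-rich protein of stressed tissue, was singled out after its values were seen: it had no read in any Sham library and 1.06, 0.544 and 0.551 CPM in IR 1, 2 and 3, at least 17.3-fold higher against a floor of 3 counts over the Sham group (adjusted p = 0.0217, averaged adjusted p = 0.0854).

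Of the 26 genes that fell, 5 changed by at least 2-fold, against 47 of the 86 that rose. Kcnd2, a channel subunit of the transient outward potassium current, was at 41, 44.9 and 44.5 CPM in Sham 1, 2 and 3 and 29.4, 29.6 and 29.2 CPM in IR 1, 2 and 3, a log2 fold change of -0.56 ± 0.081 (adjusted p = 0.0172, averaged -0.56 ± 0.10, adjusted p = 0.105). It was the 1 gene of 35 potassium channels that passed. A negative value was found in 25 of the 35 (median -0.11), where 48.8% of all genes tested were positive. Ano10, an anoctamin membrane protein, was at 31.3, 31.3 and 32.5 CPM in Sham 1, 2 and 3 and 20.5, 19.7 and 20.7 CPM in IR 1, 2 and 3 (-0.64 ± 0.083, adjusted p = 0.00837, averaged -0.64 ± 0.10, adjusted p = 0.0822), the 1 of 6 anoctamins tested to pass (median 0.028). The lipid transporter Abca12 was at 14, 12.8 and 15.7 CPM in Sham 1, 2 and 3 and 7.92, 7.61 and 7.0 CPM in IR 1, 2 and 3 (-0.91 ± 0.12, adjusted p = 0.00837, averaged -0.94 ± 0.14, adjusted p = 0.0651). Ces1d, a carboxylesterase that cleaves lipid esters, was at 143, 107 and 105 CPM in Sham 1, 2 and 3 and 56.9, 53.7 and 64.6 CPM in IR 1, 2 and 3 (-1.02 ± 0.12, adjusted p = 0.00675, averaged -0.99 ± 0.15, adjusted p = 0.0651). In all 4 genes the IR libraries lay close together, and none of the 4 passed with IR 1 and IR 2 averaged.

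Of the others that fell, Ttll1, a tubulin-modifying enzyme, changed by -0.56 ± 0.083 (adjusted p = 0.0186, averaged adjusted p = 0.109). Cngb3, a cyclic nucleotide-gated channel subunit, changed by -0.99 ± 0.16 (adjusted p = 0.0217, averaged adjusted p = 0.146). For the leptin receptor Lepr the change was -0.86 ± 0.16 (adjusted p = 0.0424, averaged adjusted p = 0.18). Cenpf, a kinetochore protein, was at 64.8, 60.4 and 80.1 CPM in Sham 1, 2 and 3 and 35, 36.3 and 18 CPM in IR 1, 2 and 3 (-1.2 ± 0.22, adjusted p = 0.0336, averaged adjusted p = 0.105). The centrosomal Cep128 changed by -0.65 ± 0.12 (adjusted p = 0.0336, averaged adjusted p = 0.156). Of 40 proliferation genes tested, Cenpf fell and the cyclin Ccnd2 rose (0.48 ± 0.088, adjusted p = 0.0358, averaged adjusted p = 0.187), with a median of 0.15. Lgals4, galectin 4 (-0.70 ± 0.14, adjusted p = 0.0465, averaged adjusted p = 0.134), and Gapdh have near-identical copies that could share their reads. Gapdh was counted at only 7.71, 8.06 and 6.66 CPM in Sham 1, 2 and 3 and 4.24, 4.14 and 4.88 CPM in IR 1, 2 and 3, so its decrease (-0.76 ± 0.14, adjusted p = 0.033, averaged adjusted p = 0.211) is uncertain.

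No gene of the respiratory chain, TCA cycle or fatty acid lists passed. For all genes tested, 48.8% had a positive value and the median was -0.0049. Of 79 nuclear-encoded respiratory chain genes, 76 had a negative value, with a median of -0.13. Of 32 TCA cycle and pyruvate genes, 29 were negative (median -0.12), and of 56 fatty acid genes 45 were (median -0.14). The respiratory chain and TCA cycle member with the smallest p was Sdhc, a subunit of succinate dehydrogenase, at 287, 303 and 279.7 CPM in Sham 1, 2 and 3 and 255, 250.4 and 247 CPM in IR 1, 2 and 3 (-0.21 ± 0.071, adjusted p = 0.324). Among fatty acid genes it was Etfb, an electron transfer flavoprotein subunit, at 70.7, 67.8 and 63.3 CPM in Sham 1, 2 and 3 and 54.5, 54.1 and 49.7 CPM in IR 1, 2 and 3 (-0.35 ± 0.082, adjusted p = 0.102). Sham and IR did not overlap in either gene, but neither passed. All 15 mitochondrially encoded genes were negative (median -0.25), none passing, with mt-Rnr1 the nearest (-0.42 ± 0.13, adjusted p = 0.248). These genes are not independent of each other. Of 39 glycolysis and glycogen genes, 1 rose and 2 fell (median -0.011). Pfkp, the platelet-type phosphofructokinase, was at 32.9, 48 and 39.3 CPM in Sham 1, 2 and 3 and 60.7, 60.2 and 64.2 CPM in IR 1, 2 and 3 (0.62 ± 0.12, adjusted p = 0.0465, averaged adjusted p = 0.217). Pfkfb1, which sets the level of its activator, was at 25.3, 20.7 and 24 CPM in Sham 1, 2 and 3 and 12.5, 13.5 and 15.4 CPM in IR 1, 2 and 3 (-0.76 ± 0.11, adjusted p = 0.0188, averaged adjusted p = 0.115), and Gapdh was the other that fell.

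None of 34 calcium cycling genes passed (median 0.0023). Jph1, a junctophilin, had the smallest p (-0.26 ± 0.098, adjusted p = 0.378). Of 29 genes of the CaMKII and calcineurin pathway, Rcan1 alone passed (median -0.0052). Camk2d, which encodes CaMKIIδ and is the target of the editing system used in other groups, was at 195, 269 and 276 CPM in Sham 1, 2 and 3 and 229.7, 241 and 238 CPM in IR 1, 2 and 3 (-0.063 ± 0.12, adjusted p = 0.925). Sham 1 was the lowest library and Sham 2 and 3 the highest, so the IR libraries lay inside the Sham range. None of 25 sodium channel, HCN channel and connexin genes passed (median 0.019; Scn4b -0.55 ± 0.17, adjusted p = 0.271). Nor did any of 15 conduction system genes (median 0.21; Shox2 0.86 ± 0.24, adjusted p = 0.197). Of 23 atrial genes, Nppa and Pam, a peptide-amidating enzyme (712, 758 and 699 CPM in Sham 1, 2 and 3 and 949, 961 and 953 CPM in IR 1, 2 and 3; 0.40 ± 0.073, adjusted p = 0.0349, averaged adjusted p = 0.222), rose (median 0.22). Sham 3 was low in Myl7 as given above, and the atrial median was 0.14 without that library, against 0.22 with it.

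Antigen presentation and interferon genes were mostly positive without passing. Of 26 MHC and antigen presentation genes 24 were positive (median 0.27), and of 45 interferon-stimulated genes 42 were (median 0.20). No member passed. The share of positive values over all genes tested was 48.8%, with a median of -0.0049. Nlrc5, the activator of MHC class I genes, was at 6.49, 5.83 and 7.96 CPM in Sham 1, 2 and 3 and 10.04, 9.87 and 12.6 CPM in IR 1, 2 and 3 (0.69 ± 0.15, adjusted p = 0.0802). Oasl2 led the interferon list (0.41 ± 0.10, adjusted p = 0.129). The summed interferon list was 561 to 788 CPM in Sham and 775 to 857 CPM in IR, so the groups overlapped. Of 42 macrophage and monocyte genes, Spp1 and Gpnmb rose (median 0.19). Spp1, osteopontin, was at 0.482, 0.169 and 0.698 CPM in Sham 1, 2 and 3 and 4.07, 3.68 and 1.44 CPM in IR 1, 2 and 3 (2.77 ± 0.47, adjusted p = 0.0259, averaged adjusted p = 0.132). Gpnmb, a glycoprotein of lipid-laden macrophages, was at 1.67, 1.35 and 0.698 CPM in Sham 1, 2 and 3 and 4.87, 4.89 and 2.5 CPM in IR 1, 2 and 3 (1.69 ± 0.32, adjusted p = 0.0424, averaged adjusted p = 0.222). The list's summed level was 419.6 to 701 CPM in Sham and 554 to 571 CPM in IR, so the groups overlapped. Of 40 chemokines, cytokines and receptors, fractalkine, Cx3cl1, rose (0.66 ± 0.13, adjusted p = 0.0426, averaged adjusted p = 0.219; list median 0.088). Of 21 complement genes, the lectin pathway protease Masp1 rose (0.76 ± 0.13, adjusted p = 0.0283, averaged adjusted p = 0.18; list median 0.094). Lymphocyte and neutrophil genes were sparse. None of 11 T cell, NK and mast cell genes passed (median 0.15; Kit 0.54 ± 0.15). Neither did 9 B and plasma cell genes (median 0.62; Ighd 0.93 ± 0.24) or 4 neutrophil genes (median -0.086; S100a9 -0.97 ± 0.69). The neutrophil markers Ly6g and Mpo were at 0 in all 6 libraries.

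Few markers of the other cell types of the heart passed. Of 33 blood endothelial genes, Esm1, endocan, rose (0.889, 1.27 and 1.26 CPM in Sham 1, 2 and 3 and 2.63, 2.76 and 2.12 CPM in IR 1, 2 and 3; 1.15 ± 0.22, adjusted p = 0.0427, averaged adjusted p = 0.225), with a list median of -0.021. Of 14 lymphatic endothelial genes, 13 were positive (median 0.34), against 48.8% of all genes tested. Sema3d, a secreted semaphorin that is also on the epicardial list, rose (1.02 ± 0.19, adjusted p = 0.0427, averaged adjusted p = 0.249). The summed lymphatic list was 367 to 404 CPM in Sham and 456 to 469.8 CPM in IR. The 9 epicardial genes had a median of 0.12, with Sema3d the 1 that passed. No endocardial gene of 12 passed (median 0.071, Npr3 -0.18 ± 0.085). The same held for 15 pericyte genes (median 0.086, Abcc9 -0.29 ± 0.073) and 14 Schwann and nerve genes (median 0.16, Prnp 0.34 ± 0.074). No call was made among 10 adipocyte genes (median 0.082; Scd1 0.32 ± 0.11) or 11 red blood cell and platelet genes (median -0.25). Of 4 genes tested from the skeletal muscle, lung and thymus list, the fast-muscle Mybpc2 rose (10.3, 11.8 and 10.3 CPM in Sham 1, 2 and 3 and 17.1, 18.3 and 14.9 CPM in IR 1, 2 and 3; 0.64 ± 0.11, adjusted p = 0.0329, averaged adjusted p = 0.206), while the lung genes Sftpd and Cldn18 were at 0 throughout.

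Of 35 immediate early genes, none passed, with a median of 0.0067. The nearest was Cyr61, a relative of Ctgf (26.3, 32.5 and 23.9 CPM in Sham 1, 2 and 3 and 35.3, 39.8 and 44.1 CPM in IR 1, 2 and 3; 0.53 ± 0.12, adjusted p = 0.104). None passed of 25 circadian clock genes (median -0.11; Hlf -0.49 ± 0.17), 38 unfolded protein and integrated stress response genes (median 0.02; Nupr1 0.86 ± 0.19) or 20 heat shock genes (median 0.087; Hspb8 0.24 ± 0.086). The summed heat shock list was 3384 to 3634 CPM in Sham and 3515, 3376 and 4848 CPM in IR 1, 2 and 3. The unfolded protein list was at 3381 to 3652 CPM in Sham and 3174, 3149 and 3862 CPM in IR 1, 2 and 3. Without IR 3 the medians of both lists were negative. Nor did any of 24 p53 genes (median 0.061; Plk2 0.29 ± 0.10), 24 muscle atrophy genes (median -0.028; Foxo3 -0.42 ± 0.17) or 37 ribosomal protein genes (median -0.027; Rpl3 0.31 ± 0.093). Of 41 NRF2 and antioxidant genes, Nox4 and Gpx3 rose (median 0.029).

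The injured hearts given a control virus were compared with the uninjected injured hearts directly, since both stand against the same Sham libraries. No gene of 15065 passed in edgeR (0%), 936 had an unadjusted p under 0.05, and the smallest adjusted p was 0.761; DESeq2 called 2. IR virus 3 is the library that resembles IR 1 and IR 2. With those 2 averaged and IR virus 3 left out, 1 gene passed. Against Sham, IR virus 1 and 2 alone gave the following fitted log2 fold changes, beside those of IR: Thbs4 2.31 and 2.42, Cilp 2.96 and 2.9, Postn 1.35 and 1.64, Col1a1 1.34 and 0.96. For the cardiomyocyte genes the pairs were Ankrd1 1.16 and 1.48, Nppa 2.8 and 2.56, Acta1 2.36 and 2.04, and Myh7 2.05 and 1.65. For genes that fell they were Kcnd2 -0.64 and -0.56, Ano10 -0.68 and -0.64, and Ces1d -0.88 and -1.02. Both sets of values share the Sham libraries, and no test of likeness was made between them.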

How the data were processed

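RNA from whole hearts was isolated with an RNeasy Micro kit and made into libraries with a KAPA mRNA HyperPrep kit, per the labels' protocols. The values are raw read counts per gene symbol, deposited by the authors as 1 file per library. The submitters' processing notes name HISAT2 2.1.0 with build mm10, featureCounts 1.6.2, Trimmomatic 0.39 and FastQC 0.11.8. Neither the annotation nor the strand setting is given in the sources used here, so reads of overlapping and antisense genes cannot be separated. Totals of the 6 libraries were 22784417 to 27265276 counts, which makes values of genes with a few reads imprecise.

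Counts were analysed in R 4.3.3. The 3 IR and 3 Sham libraries were fitted alone with edgeR 4.0.16 (filterByExpr, TMM scaling, quasi-likelihood test, Benjamini-Hochberg adjustment over all genes tested, threshold 0.05, two-sided). Degrees of freedom were 4 residual and 6.88 prior, and the common coefficient of variation was 0.111. Standard errors are on the log2 scale. The fit with IR 1 and IR 2 averaged used their mean counts, rounded, as 1 sample, and was chosen after seeing the data. Pair spreads used genes with at least 200 reads over the 13 libraries. Alternatives were DESeq2 1.42.0, limma 3.58.1 (voom with quality weights), other scalings and filters, all 13 libraries, a replicate block and leaving out each library. Scripts were tested on simulated data.

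The comparison and the gene lists were chosen with earlier results of these data known. Named genes are those that passed, with a mean of at least 1 CPM in the higher group and a gene name, that had the 15 largest positive or 10 largest negative changes or the 5 smallest p in a direction. From each list the 3 members with the smallest p that passed were added, or the member with the smallest p where none did, and further members that passed may be named. A few genes that the rule names are not reported here. Positions are those of GENCODE M21, in which 14709 of the 14963 genes tested (98.3%) were found by symbol, and promoters are those of RefSeq.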

Additional observations from a re-analysis of the deposited data

How the results depend on the processing

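The 112 genes that passed in IR against Sham were 255 with DESeq2 (all 112 among them), 313 with limma voom and 2 with all 13 libraries in the fit. Leaving out 1 library gave 15 to 193. With IR 1 and IR 2 averaged, 14 genes passed in edgeR and 100 in DESeq2; leaving out Sham 1, Sham 2 or Sham 3 from that fit gave 24, 4 or 0, leaving out IR 3 gave 31, and IR 3 alone gave 22. The other scalings, filters and dispersion settings gave 93 to 129. The share of the called genes that were higher was 76.8%, and 58.6% without Sham 3, 93.3% without IR 1, 92.9% averaged and 50% with all 13 libraries. No gene of the 112 changed sign in any of these settings.

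For IR virus against IR, 0 genes passed in edgeR, 2 in DESeq2, 0 to 2 with 1 library left out, and 1 with IR 1 and IR 2 averaged and IR virus 3 left out. The replicate block gave 90 genes for IR against Sham, 84.4% of them higher, and 0 for IR virus against IR. Same-numbered IR and Sham libraries had correlations of deviations of -0.0421, -0.0422 and -0.0776, and differently numbered ones lay between -0.0399 and 0.0763. With 3 libraries in each group, these values cannot decide whether the numbers pair the samples.

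Among named genes that did not pass, Actc1 turned to -0.0198 with limma voom and lay between -0.0172 and 0.22 with 1 library left out (-0.0105 without Sham 1, -0.0172 without Sham 3). Camk2d lay between -0.21 and 0.0189 (0.00302 without Sham 2, 0.0189 without Sham 3), and averaged turned to 0.00622 without Sham 2 and 0.0244 without Sham 3. Ryr2 turned to 0.13 with IR 3 alone. S100a9 lay between -1.46 and 0.29, the latter without Sham 1, and was 0.45 averaged without it. The medians of the matrix, scar, cardiomyocyte stress, respiratory chain, TCA cycle, fatty acid, antigen presentation and interferon lists kept their sign in all settings. That of macrophage genes was negative averaged without Sham 2. Those of calcium cycling, glycolysis, blood endothelial, CaMKII and calcineurin, anoctamin and contractile genes turned in several. So did those of sodium channel and connexin, NRF2, ribosomal protein, T cell and neutrophil genes. The Wnt, complement, endocardial, Schwann, adipocyte, unfolded protein, heat shock, p53, proliferation, growth factor and skeletal muscle medians turned in fewer settings. The averaged settings were chosen after seeing the data.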

Other observations

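Bmp10, a BMP ligand made in the atria, was looked up among the atrial genes after its values were seen. It was at 0.111, 0.507 and 0.326 CPM in Sham 1, 2 and 3 and at 4.15, 2.93 and 0.127 CPM in IR 1, 2 and 3, which is 3, 12 and 7 reads against 98, 70 and 3. It did not pass in edgeR's quasi-likelihood test (log2 fold change 2.95 ± 0.87, adjusted p = 0.231). In IR virus 1, 2 and 3 it had 85, 139 and 79 reads. IR 3 was thus the 1 injured library of these groups within the Sham range, although its Myl7 level, 30.1 CPM, was the highest of the 6 libraries. The liver gene Alb had 245 reads in Sham 1 and 22 in IR 3, and at most 5 in the other Sham, IR and IR virus libraries.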
